A study of Rattus norvegicus with 167 samples.

Results

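The genes described here were 9 that build and cross-link collagen fibrils: the type I collagen chains Col1a1 and Col1a2, the type III chain Col3a1, the type V chains Col5a1 and Col5a2, the type XII chain Col12a1, and the lysyl oxidases Lox, Loxl1 and Loxl2. They were taken by name, each through the probe set with the highest mean among those of the array annotated with that symbol alone, and made up 9 of 14218 named genes and 9 of the 12041 genes tested. Spinal cord of adult female Wistar rats was profiled after the cord had been cut through at thoracic level T7/8 and 5 mm of it taken out. The gap received a 5 mm chitosan tube carrying neurotrophin-3 (NT3), the same tube with no NT-3 (empty tube, ET), or nothing (lesion control, LC), so that every operated group shared the transection and the lost tissue. Pieces of 5 mm from the lesion site and from the cord just rostral and just caudal to it were arrayed on days 1, 3, 10, 20, 30, 60 and 90. The rostral and caudal pieces covered NT3, ET and LC on all 7 days, whereas the lesion site covered NT3 and LC on days 3 to 90 and ET on day 3 alone. Each group held 3 arrays, apart from rostral ET on day 10 with 2, and 3 arrays came from uninjured cord. Everything below is a log2 value of RMA, a method that summarises the probes of a set after background correction and normalisation across arrays, so that a difference of 1 is a 2-fold change. A difference was called when limma's moderated test gave a Benjamini-Hochberg adjusted p under 0.05 over all genes tested, and errors on differences are standard errors of that fit. Nothing in the labels ties replicates to separate rats, and the p-values therefore measure only the spread between these samples, part of which may be technical.

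Type I, III and V collagens are fibrillar: their chains wind into triple helices that pack side by side into the fibrils of skin, tendon, meninges and scar. Type V collagen starts fibrils and limits their width, and type XII collagen is not itself fibrillar but sits on the surface of type I fibrils. Lysyl oxidases are secreted copper enzymes that turn lysine side chains of collagen and elastin into reactive aldehydes, from which the covalent cross-links of a fibril form. Healthy cord parenchyma holds little fibrillar collagen outside its meninges and vessels, and a collagen-rich scar laid down by fibroblasts is a known feature of the wounded cord.

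RefSeq promoter windows on assembly GRCr8, running from 250 bases before to 50 after the annotated start, were at hand for 4 of the 9 genes, and 3 are shown because these genes, which sit on 3 chromosomes and are known for different roles in the fibril, changed together in the arrays. Capitals mark letter matches to 3 motifs known from core promoters, wherever they lie in the window. The box named TATA is TATAAA, the CCAAT box lies here on the opposite strand and so is printed as its complement, and the GC box is GGGCGG.
Col1a2 (chr4:33518307-33518606, plus strand): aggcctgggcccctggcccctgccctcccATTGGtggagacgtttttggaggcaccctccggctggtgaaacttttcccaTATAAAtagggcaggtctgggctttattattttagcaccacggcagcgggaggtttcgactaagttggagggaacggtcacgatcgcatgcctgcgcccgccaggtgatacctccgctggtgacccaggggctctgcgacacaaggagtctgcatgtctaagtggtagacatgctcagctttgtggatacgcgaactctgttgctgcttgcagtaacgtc
Col5a1 (chr3:31606630-31606929, plus strand): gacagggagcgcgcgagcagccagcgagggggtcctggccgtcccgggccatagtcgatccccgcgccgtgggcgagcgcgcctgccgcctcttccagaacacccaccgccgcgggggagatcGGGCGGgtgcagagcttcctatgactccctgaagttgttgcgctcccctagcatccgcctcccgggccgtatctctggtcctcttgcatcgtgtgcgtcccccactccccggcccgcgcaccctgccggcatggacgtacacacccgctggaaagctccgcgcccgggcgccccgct
Loxl1 (chr8:67612175-67612474, minus strand): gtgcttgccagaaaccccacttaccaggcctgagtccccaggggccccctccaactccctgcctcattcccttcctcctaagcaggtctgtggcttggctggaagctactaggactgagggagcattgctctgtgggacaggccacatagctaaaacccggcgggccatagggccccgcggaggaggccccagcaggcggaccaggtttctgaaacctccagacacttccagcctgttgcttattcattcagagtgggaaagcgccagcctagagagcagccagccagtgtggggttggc
The windows differed in base composition, with 57.0% G and C in Col1a2, 72.0% in Col5a1 and 61.0% in Loxl1, against 47.7% in Col5a2 and a median of 52.3% over 27457 rat promoters. The Col1a2 window held TATAAA at base 81 and CCAAT on the opposite strand at base 30, counted from 1 at the 5′ end, and these occur on either strand in 14.3% and 37.7% of all windows. Relative to the annotated start these matches lay at -170 and -221. The Col5a1 window held GGGCGG at base 124 (-127 from the start), which 34.9% of windows share, and neither TATAAA nor CCAAT, while the Loxl1 and Col5a2 windows held none of these 3 motifs. CAGAC, the core of SMAD binding sites, occurred 2 times in Col1a2, 3 times in Col5a2, 2 times in Loxl1 and 0 times in Col5a1, against 49.97% of all windows with at least 1 copy. TGANTCA, the AP-1 site, was in 0 of these 4 windows and in 7.33% of all. Both strands were searched for every motif, no 2 motifs overlapped, and a match is a run of letters and no measured binding.

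Some measured facts of the arrays bear on what follows. The piece labelled as uninjured cord carried neuron markers at a mean log2 value of 10.93 to 10.97, against 6.30 to 8.66 in lesion site LC and 9.60 to 10.5 in rostral LC, and in tissue homogenates fewer cells of a type and less RNA per cell cannot be told apart. The first rostral LC array of day 10 stood apart from its group: the mean of the 9 genes was 8.92 there, against 11.66 and 11.23 in its mates. Results of several tests that rest on it are given with and without it. RT1-CE10, a class I histocompatibility gene, lay above a log2 value of 9 in 58 of 167 arrays and split them by whole groups, being above in all arrays of 17 groups, in none of 35 and in some of 4. The part of this split in the treatment results was not tested beyond the values given beside them. The difference between the 3′ and 5′ beta-actin control probe sets, a sign of RNA integrity, was 0.69 to 1.59 in lesion site LC and 1.35 to 2.29 in uninjured cord.

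All 9 genes were higher at the lesion site of LC rats than in uninjured cord, in each of 3 periods, by 4.87-fold to 82.3-fold. On day 3 all 9 passed the test in a comparison where 40.8% of tested genes were called higher. All 9 also passed for the mean of days 10 to 30 and for the mean of days 60 and 90, against 41.9% and 40.4% of tested genes called higher. The median difference of the 9 was 4.20, 4.58 and 4.24 in these periods, and that of all genes 0.08, 0.07 and 0.06. All 9 calls held under every alternative run and with any 1 array left out.

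The type I and III chains make up the bulk of scar collagen. Col1a1, the alpha-1 chain of type I collagen, read 13.54, 13.70 and 13.52 in LC lesion sites on day 10, against 8.00, 8.46 and 8.45 in uninjured cord. The groups did not overlap, and over days 10 to 30 the difference was 5.25 ± 0.10 (38.1-fold, limma adjusted p = 2.06e-29). Col1a2, the partner chain in the same triple helix, read 14.17, 14.35 and 14.17 in LC on day 10 and 9.60, 9.33 and 9.65 in uninjured cord, with a difference of 4.64 ± 0.08 (24.9-fold) over days 10 to 30. Col3a1, the single chain of type III collagen, which mixes with type I in young scar, read 14.34, 14.44 and 14.43 in LC on day 10 and 10.11, 9.50 and 9.95 in uninjured cord. Its difference over days 10 to 30 was 4.52 ± 0.09 (23.0-fold). No array of LC lesion site on any day overlapped the uninjured arrays for these 3 genes. The share of all tested genes that separated in this way was not counted.

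The chains that start and coat fibrils had smaller differences than both type I chains. Col5a1, the common type V chain, read 11.49, 11.74 and 11.63 in LC lesion sites on day 10, against 8.28, 8.03 and 8.11 in uninjured cord. Its difference over days 10 to 30 was the smallest of the 9, at 3.34 ± 0.12 (10.1-fold, limma adjusted p = 5.81e-22), although a second Col5a1 probe set gave 4.25. Col5a2, the other type V chain, read 13.36, 13.63 and 13.54 in LC on day 10 and 9.34, 9.33 and 9.17 in uninjured cord, with a difference of 3.99 ± 0.09 (15.9-fold). Col12a1, the fibril-surface collagen, read 11.40, 11.90 and 11.60 in LC on day 10 and 7.97, 7.25 and 7.73 in uninjured cord, with a difference of 3.91 ± 0.14 (15.1-fold). Its other probe sets, both of lower mean, gave 3.12 and 0.68, below either value of Col5a1. The groups did not overlap for any of the 3, and how many of all tested genes separated so was not counted.

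Among the cross-linking enzymes, Lox and Loxl2 had larger differences from uninjured cord on day 3 than any of the collagens, whereas Loxl1 lay below Col1a1 and Col3a1. Lox, the founding enzyme of the family, read 13.05, 13.36 and 13.19 in LC lesion sites on day 3, against 7.18, 6.48 and 6.86 in uninjured cord. That was a difference of 6.36 ± 0.16 (82.3-fold, limma adjusted p = 7.56e-26), the highest of the 9 genes on day 3. Loxl2, a lysyl oxidase that also acts on the type IV collagen of basement membranes, read 10.14, 10.36 and 10.69 in LC on day 3 and 5.23, 5.22 and 4.99 in uninjured cord, a difference of 5.25 ± 0.27 (38.0-fold). Loxl1, best known for its part in elastic fibres, read 10.91, 11.24 and 11.39 in LC on day 3 and 7.02, 6.90 and 7.01 in uninjured cord, a difference of 4.20 ± 0.14. Over days 60 and 90 the difference was 4.93 ± 0.13 (30.4-fold) for Lox, 4.83 ± 0.12 (28.5-fold) for Loxl1 and 3.18 ± 0.24 (9.08-fold) for Loxl2.

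Most other genes of the collagen pathway were also higher at the lesion site of LC rats over days 10 to 30, where 41.9% of all tested genes were called higher. Of 20 tested genes for folding and trimming procollagen, 18 were higher and 0 lower, among them Pcolce, which speeds removal of the C-propeptide, by 4.29 ± 0.11, Plod2, which hydroxylates telopeptide lysines, by 4.26 ± 0.10, and Fkbp10, a collagen chaperone, by 3.15 ± 0.12. Of 23 other collagen chains, 18 were higher and 3 lower. Col6a3 (5.61 ± 0.12), Col8a1 (5.23 ± 0.16) and Col6a2 (4.68 ± 0.16) led the higher ones. The lower ones were Col9a3 (mean 8.32 against 10.32 in uninjured cord), Col11a2 (6.79 against 8.20) and Col9a2 (7.57 against 8.10). The other cross-linkers were higher in 3 of 3 cases: Tgm2 by 3.199 ± 0.12, Loxl3 by 2.58 ± 0.13 and Tgm1 by 0.85 ± 0.16. Genes for breaking collagen down were higher in 8 of 8 cases, with a median of 4.95, and included the protease genes Ctsk (5.31 ± 0.12), Mmp13 (5.21 ± 0.64) and Fap (5.08 ± 0.19). In the same comparison 6 of 7 fibroblast markers, 5 of 5 pericyte markers, 5 of 6 leptomeningeal markers and 4 of 4 macrophage markers were higher, while Thy1, the remaining fibroblast marker and also a neuronal surface gene, was lower by 2.56, along with 4 of 4 neuron, 3 of 3 astrocyte and 2 of 2 oligodendrocyte markers. Among the pericyte markers Anpep was higher by 4.59 and the other 4 by 0.30 to 1.05. The part of these cell types in the collagen levels was not tested.

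**Figure D1:**
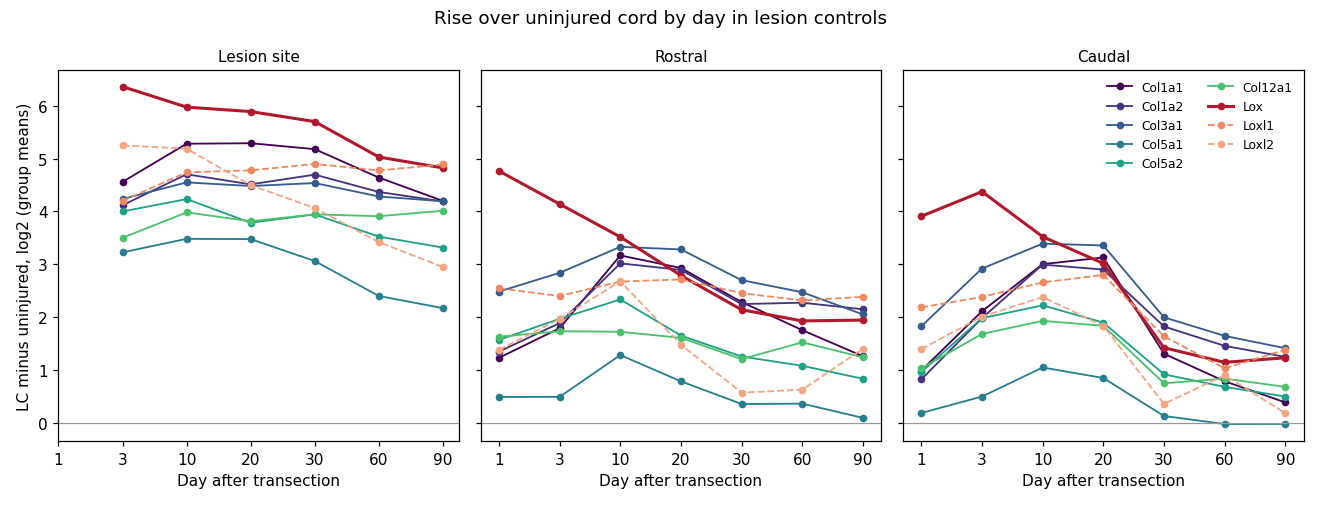
Mean log2 difference of LC from uninjured cord on each day, for the 9 genes (1 line each, Lox in bold red) at the lesion site, rostral and caudal to it. At the lesion site every line stays above 2 from day 3 to day 90, while in the neighbouring cord the Lox difference is the largest of the 9 on day 1, peaks on day 1 rostrally and on day 3 caudally, and is lower on the later days. The rostral mean of day 10 holds the array that stands apart, where Lox read 7.89, against 11.78 and 11.40 in its mates.

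Within the LC lesion site, 4 of the 6 collagens and Loxl1 were higher on day 10 than on day 3, while Lox was lower. Between day 10 and day 3, 5 genes were higher and 1 lower, where 36.8% of tested genes were called in either direction. Col1a1 gained 0.72 ± 0.12 (limma adjusted p = 1.57e-05), Col1a2 gained 0.59 (adjusted p = 1.62e-05) and Loxl1 0.54 (adjusted p = 0.00261), with smaller gains in Col12a1 (0.48) and Col3a1 (0.31). Lox read 12.46, 13.00 and 12.98 on day 10, against 13.05, 13.36 and 13.19 on day 3, and fell by 0.39 on the log2 scale (adjusted p = 0.0491), just inside the threshold. Col5a1 (0.26), Col5a2 (0.23) and Loxl2 (-0.06) did not pass. The highest LC mean fell on day 3 for Lox and Loxl2, on day 10 for Col1a2, Col3a1, Col5a1 and Col5a2, on day 20 for Col1a1, on day 30 for Loxl1 and on day 90 for Col12a1. One fit of all arrays in place of the lesion site fit called 0 of these day 10 changes.

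The late lesion site parted into genes that declined and genes that stayed. Between the mean of days 60 and 90 and that of days 10 to 30, 7 genes were lower, where 21.7% of tested genes were called lower. Loxl2 declined most, by -1.40 ± 0.18 (limma adjusted p = 1.07e-07), and on day 90 read 7.87, 8.06 and 8.36. Col5a1 declined by -1.06 ± 0.10, Lox by -0.93 ± 0.10 and Col1a1 by -0.83 (adjusted p = 2.02e-10). Col5a2 (-0.57), Col1a2 (-0.36) and Col3a1 (-0.29) declined less. Col12a1 (0.05, adjusted p = 0.755) and Loxl1 (0.03, adjusted p = 0.832) did not pass, and on day 90 Col12a1 read 11.82, 11.74 and 11.44 in LC, inside its range of day 10. Of the peak rise over uninjured cord, on the log2 scale, 99.8% was left on day 90 for Loxl1 and 92.1% for Col3a1, against 62.3% for Col5a1 and 56.1% for Loxl2.

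In the cord beside the lesion the same genes rose by less, and Lox stood out early. Rostral to the lesion all 9 were higher in LC than in uninjured cord over days 1 and 3, where 36.0% of tested genes were called higher, and over days 10 to 30, where 29.1% were. Over days 60 and 90 it was 8 of 9, against 24.9% of tested genes, with Col5a1 at 0.22 ± 0.20 (adjusted p = 0.352). Rostral Lox read 11.21, 11.70 and 11.90 in LC on day 1, against 7.18, 6.48 and 6.86 in uninjured cord. It was therefore more than 4 log2 units above every uninjured array on the first day, and over days 1 and 3 the difference was 4.45 ± 0.38 (21.9-fold, limma adjusted p = 1.6e-14), while Col1a1 differed by 1.51 ± 0.33 and Col3a1 by 2.66 ± 0.25. By days 60 and 90 the Lox difference was 1.93 ± 0.38 (3.82-fold).

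Caudal to the lesion the order was alike. All 9 were higher in LC than in uninjured cord over days 1 and 3 and over days 10 to 30, against 34.3% and 29.2% of tested genes called higher, although Col5a1 passed narrowly in the first period (0.34 ± 0.15, adjusted p = 0.0493). Caudal Lox read 10.85, 10.13 and 11.26 on day 1 and 11.11, 11.21 and 11.32 on day 3 in LC, which again lay far above the uninjured arrays, and its difference over both days was 4.14 ± 0.32 (17.6-fold, limma adjusted p = 7.18e-16). Over days 60 and 90, 6 of 9 were higher, against 25.2% of tested genes. Col1a1 (0.58 ± 0.33, adjusted p = 0.13), Col5a1 (-0.03) and Loxl2 (0.54, adjusted p = 0.0884) were the 3 that did not pass. By day 90 caudal Lox read 8.56, 8.13 and 7.51.

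In LC, most collagens of the neighbouring cord had their highest mean on day 10. The exceptions were Col12a1 rostrally, on day 3, and Col1a1 caudally, on day 20. Rostrally, 0 of the 9 passed between day 3 and day 1, where 16.3% of tested genes were called higher and 4570 had an unadjusted p under 0.05. Caudally 4 were higher on day 3 than on day 1, against 15.6%: Col1a2 by 1.16, Col1a1 by 1.12, Col3a1 by 1.09 and Col5a2 by 1.02. Between day 10 and day 3, Col1a1 (1.38 ± 0.38, limma adjusted p = 0.00371), Col1a2 (1.13) and Col5a1 (0.79) were higher rostrally, 3 of 9 against 11.9% of tested genes. Caudally Col1a2 (1.01) and Col5a1 (0.55) were, 2 of 9 against 10.2%. Rostral Col1a1 read 9.76, 12.65 and 12.01 on day 10, the low value being the array that stands apart, against 10.00, 10.35 and 9.93 on day 3. Without that array 8 of the 9 were higher on day 10, Col12a1 among them at 0.90 (adjusted p = 0.000715) in place of -0.01, and Lox remained uncalled at 0.61 (adjusted p = 0.0767). Without the second LC array of day 10 Lox alone passed, as lower, and without the last one Col1a1 alone, as higher. The caudal counts also leaned on single arrays: the day 3 count was 1 without the second LC array of day 1, and the day 10 count was 0 without the first LC array of day 10 and 1 without the first or the last LC array of day 3.

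The late decline ran through the neighbouring cord as well. Caudally all 9 were lower over days 60 and 90 than over days 10 to 30, where 11.8% of tested genes were called lower, from Col5a1 at -0.70 to Col1a1 at -1.89 ± 0.25 (limma adjusted p = 2.68e-07), with Lox at -1.47 and Col3a1 at -1.39. Rostrally 5 were lower, against 8.27%: Col1a1 by -1.29, Lox by -0.88, Col3a1 by -0.84, Col5a2 by -0.79 and Col5a1 by -0.58. Col1a2 (-0.51, adjusted p = 0.0795), Loxl2 (-0.56), Loxl1 (-0.26) and Col12a1 (-0.13) did not pass there. Without the rostral day 10 array that stands apart all 9 were lower, between -0.43 for Col12a1 and -1.58 for Col1a1.

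**Figure D2:**
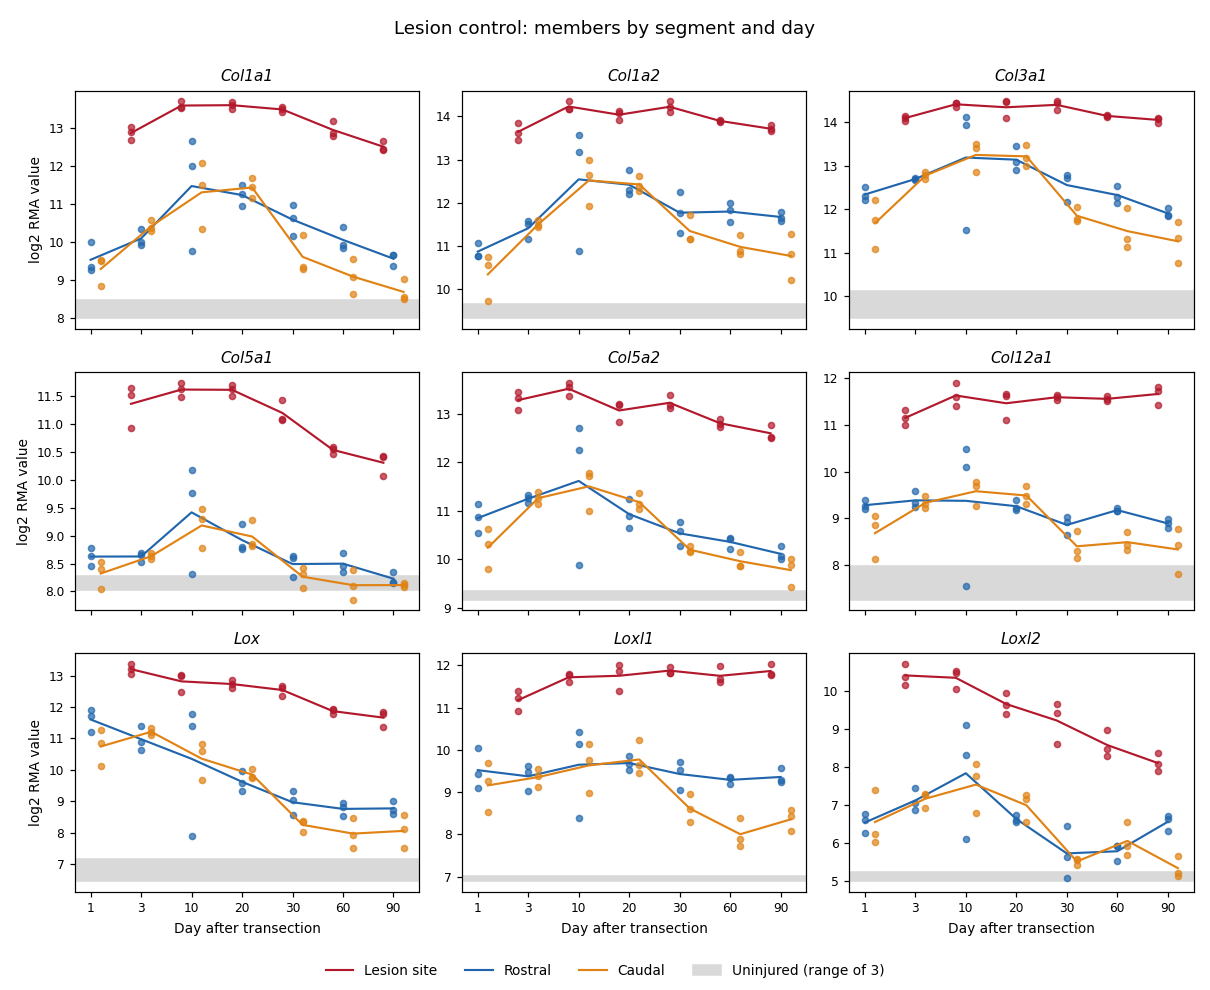
Log2 RMA value of each gene in LC arrays by day (points, 1 per array; lines join group means) at the lesion site (red), rostral (blue) and caudal (orange), with the range of the 3 uninjured arrays as a grey band. The red points lie above the blue and orange ones on nearly all days, and the single low blue point on day 10 is the array that stands apart.

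Set directly against the mean of its rostral and caudal neighbours, the LC lesion site was higher for all 9 genes on day 3, over days 10 to 30 and over days 60 and 90, where 31.1%, 45.3% and 42.8% of tested genes were called higher. The median difference of the 9 was 2.11, 2.41 and 2.65 in these periods. Loxl2 stood furthest apart on day 3, at 3.27 ± 0.35 (9.62-fold), reading 10.14, 10.36 and 10.69 at the lesion site against 7.03, 6.86 and 7.43 rostrally and 7.29, 6.92 and 7.25 caudally. Lox stood furthest apart over days 10 to 30, at 3.12 ± 0.23 (8.72-fold, limma adjusted p = 7.41e-17), and Col1a1 over days 60 and 90, at 3.38 ± 0.23 (10.4-fold), next to Lox at 3.37 ± 0.28 (10.3-fold). Col3a1 had the smallest gap on day 3 (1.36 ± 0.28) and over days 10 to 30 (1.52 ± 0.16).

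Rostral and caudal LC cord differed by 0.15 to 0.49 over the mean of 7 days, all 9 differences pointing to higher rostral values and 0 of them called. In that comparison 0.191% of tested genes were called in either direction and 717 genes had an unadjusted p under 0.05. Loxl1 came nearest, at 0.49 ± 0.12 (limma adjusted p = 0.0539). Here too the rostral array of day 10 mattered: without it 8 of 9 were called higher rostrally, from 0.25 for Col5a1 (adjusted p = 0.0299) to 0.58 for Loxl1 (adjusted p = 0.000187), with Loxl2 left out at 0.27.

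At the lesion site itself, the NT3 tube and LC differed in the 9 genes mostly late. On day 3, 1 gene passed, where 17.8% of tested genes were called in either direction: Col1a1 read 13.10, 13.34 and 13.37 with NT3 and 12.68, 13.04 and 12.88 in LC (0.40 ± 0.12, limma adjusted p = 0.0159). On day 10, 1 passed against 5.22%, and on day 20, 1 against 33.5%: Loxl2 was lower with NT3 on day 10 (-0.90 ± 0.27, adjusted p = 0.0481) and Lox on day 20 (-0.54 ± 0.16, adjusted p = 0.00688). The call of day 3 was lost without the first LC or without the second or the last NT3 array of that day, and that of day 10 without the first or the last LC or any of the NT3 arrays. On day 30, 1 passed against 18.1%: Loxl2 read 7.37, 8.10 and 8.15 with NT3 and 9.63, 8.60 and 9.40 in LC (-1.34 ± 0.27, adjusted p = 0.000624). The count on day 30 was 2 without the last LC or the last NT3 array, and 1 fit of all arrays called 0 genes on days 3, 10 and 20.

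By days 60 and 90 every one of the 9 genes had all 3 NT3 arrays below all 3 LC arrays. The share of all tested genes that separated in this way was not counted. On day 60, 4 of the 9 genes passed the test as lower, where 15.3% of tested genes were called lower, and on day 90, 7 did, against 16.5%. The median difference of the 9 was -0.40 on day 60 and -0.63 on day 90, against -0.05 and -0.07 over all genes. Loxl2 on day 60 read 6.65, 7.80 and 6.80 with NT3 and 8.47, 8.27 and 8.96 in LC, a difference of -1.48 ± 0.27 (0.359-fold, limma adjusted p = 0.000313). Loxl1 read 11.19, 11.19 and 11.36 with NT3 on day 60 and 11.98, 11.61 and 11.67 in LC (-0.50 ± 0.14, adjusted p = 0.00897). Col1a1 (-0.47 ± 0.12) and Col5a1 (-0.45 ± 0.15) were the other 2 called. Only 2 were called on day 60 without the first LC array of that day, and in 1 fit of all arrays Loxl2 alone (adjusted p = 0.00045).

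On day 90 Lox was the gene furthest below LC. It read 10.60, 10.84 and 10.80 with NT3 and 11.77, 11.84 and 11.38 in LC, a difference of -0.92 ± 0.16 (0.529-fold, limma adjusted p = 0.000104). Loxl1 read 11.05, 11.26 and 11.13 with NT3 and 11.80, 12.02 and 11.77 in LC (-0.72 ± 0.14, adjusted p = 0.000326). Loxl2 read 7.44, 7.50 and 7.28 with NT3 and 7.87, 8.06 and 8.36 in LC. Its arrays did not overlap either, but it did not pass the test (-0.69 ± 0.27, limma adjusted p = 0.057). Col5a1 read 9.59, 9.62 and 9.63 with NT3 and 10.42, 10.43 and 10.08 in LC (-0.69 ± 0.15, adjusted p = 0.0009). Col12a1 (-0.63), Col5a2 (-0.48), Col1a1 (-0.42) and Col3a1 (-0.36) were lower too, and Col1a2 did not pass (-0.21, adjusted p = 0.0899). The 3 NT3 arrays of that day still lay above the 3 uninjured arrays for all 9 genes, with 38.4% of the peak rise left for Col5a1. How many of all tested genes lay above in the same way was not counted. In 1 fit of all arrays 3 of the 9 were called on day 90, Col5a1 (adjusted p = 0.00369), Lox and Loxl1 (adjusted p = 0.0432 each).

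Other measurements moved beside the late NT3 difference. Genes for folding and trimming procollagen were lower with NT3 in 15 of 20 cases on day 60 and in 15 of 20 on day 90, among them on day 90 Plod2 (-1.15 ± 0.12), Fkbp10 (-0.64 ± 0.14) and Pcolce (-0.39 ± 0.13). Of the 23 other collagens, 1 was higher and 9 lower on day 90, Col8a1 by -0.79, Col6a3 by -0.61 and Col6a2 by -0.58 among the lower ones. Of the other cross-linkers 2 of 3 were lower on day 90, Tgm2 (-0.83) and Loxl3 (-0.63), and of the breakdown genes 4 of 8, with Fap at -1.04 and Ctsk at -0.42. Skeletal muscle markers were higher with NT3 in 6 of 7 cases on day 60 and in 3 of 7 on day 90, and their mean level ran from 6.78 to 10.9 in NT3 lesion sites and from 5.70 to 9.55 in LC over all days. Neuron markers were higher in 4 of 4 cases on day 90, with a mean level of 8.996 to 9.35 with NT3 and 6.37 to 7.45 in LC, and oligodendrocyte markers in 2 of 2. Leptomeningeal markers were lower in 5 of 6 cases on day 90, and of 7 fibroblast markers 3 were lower (Pdgfra, Pdgfrb and Twist1) and 1 higher (Thy1). Of 5 pericyte markers Anpep was lower (-0.61) and Abcc9 higher (0.45). The part of these cell types in the collagen difference was not tested. RT1-CE10 was above 9 in 0 of 3 NT3 and 3 of 3 LC arrays on day 90, where that split and the treatment cannot be told apart, and in 0 of 3 of each on day 60.

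**Figure D3:**
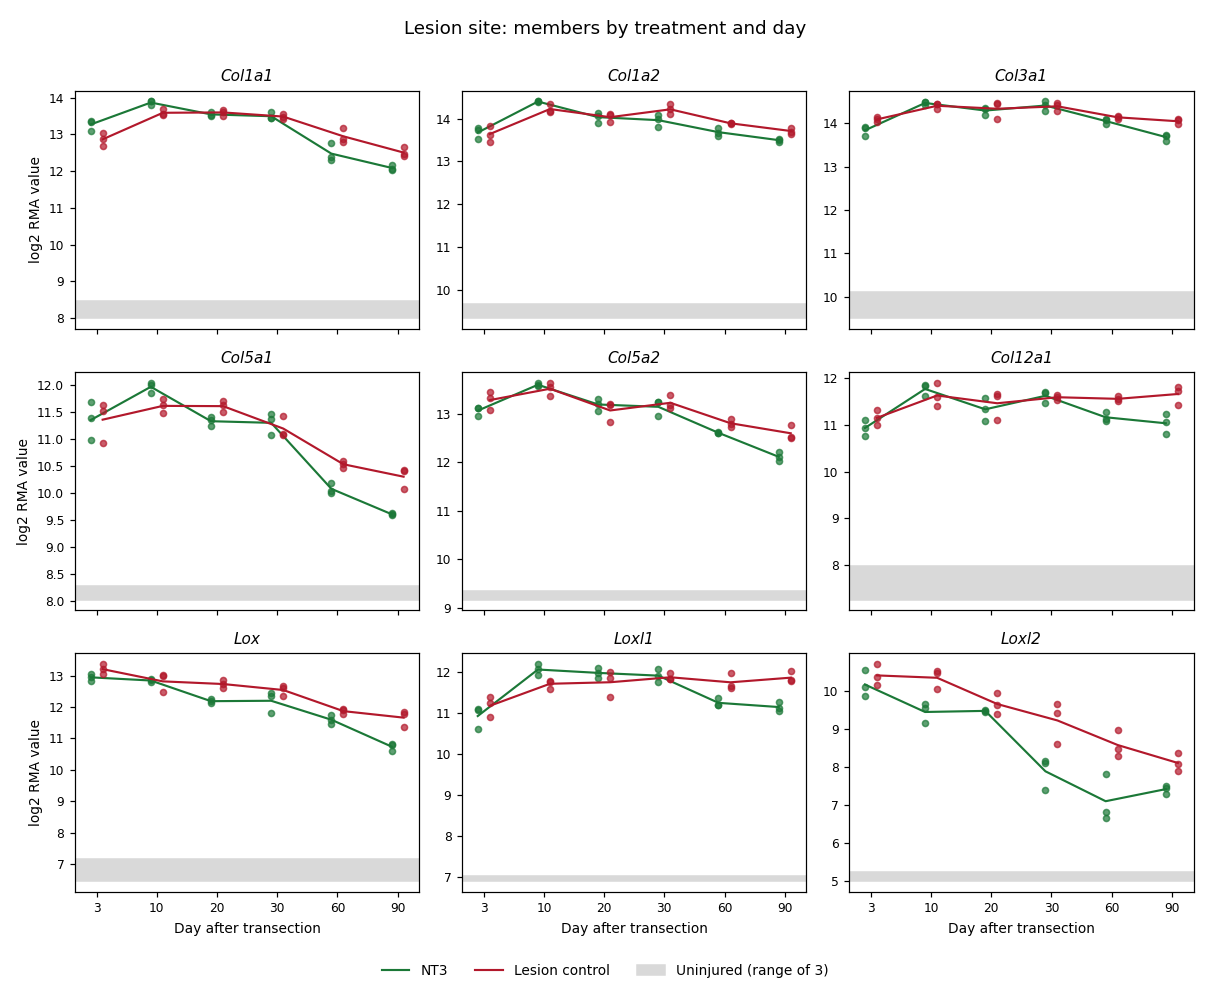
Log2 RMA values at the lesion site by day for NT3 (green) and LC (red), 1 point per array with lines through group means, 1 panel per gene. From day 3 to day 30 the order of the colours varies between genes and days, and on days 60 and 90 every green point lies below every red one in all 9.

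Whether the NT3 difference changed between days was tested directly with limma's moderated F-test on the day-by-day differences. It passed for 7 of the 9 genes, where 50.6% of tested genes were called: Col1a1, Col1a2, Col5a1, Col5a2, Lox, Loxl1 and Loxl2. Loxl1 had the highest F value, 9.39 (adjusted p = 0.000194), followed by Col1a1 at 9.08 (adjusted p = 0.000242). With the 3 days on which both groups were alike in RT1-CE10, 3 genes passed, and in 1 fit of all arrays Col5a1 alone (F = 3.80, adjusted p = 0.00739). ET lesion sites were arrayed on day 3 alone. There 0 of the 9 passed between ET and LC, where 23.2% of tested genes were called and 4317 had an unadjusted p under 0.05, with Col5a1 (-0.39, adjusted p = 0.0518) and Loxl1 (-0.36, adjusted p = 0.0532) just outside. Without the first LC array of day 3 the count was 3. Between NT3 and ET on day 3 also 0 passed, against 7.23% of tested genes called and 2983 with an unadjusted p under 0.05, and the largest difference was that of Loxl2 (0.46, adjusted p = 0.303). Without the first NT3 array of day 3 that count was 2.

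In the rostral cord it was the empty tube that stood apart. All 9 genes were higher with ET than in LC over the mean of 7 days, where 7.90% of tested genes were called higher. Col1a1 led with 1.06 ± 0.15 (2.08-fold, limma adjusted p = 8.09e-07), followed by Lox at 0.84 ± 0.17 (adjusted p = 0.000229) and Col5a2 at 0.77 ± 0.12. The other 6 lay between 0.55 ± 0.10 for Loxl1 and 0.74 ± 0.12 for Col1a2, and the median of the 9 was 0.71, against -0.03 over all genes. All 9 remained called under every alternative run and with any 1 array left out: without the LC array of day 10 that stands apart they ran from 0.46 to 0.93, with the muscle markers as a covariate from 0.53 to 1.08, and over the days alike in RT1-CE10 from 0.52 to 0.83.

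From day 20 on the arrays of both groups hardly overlapped, although most genes were already higher on average with ET on days 3 and 10. The day 10 differences rest on the LC array that stands apart. That day the mean of the 9 genes was 11.29 and 11.17 with ET. In LC it was 8.92 in that array and 11.66 and 11.23 in its mates. On days 20, 30 and 60 the 3 ET arrays lay above the 3 LC arrays for all 9 genes, and on day 90 for 8, the exception being Loxl2, which read 6.07, 5.68 and 6.85 with ET and 6.31, 6.70 and 6.63 in LC. On days 1, 3 and 10 this held for 1, 2 and 1 gene, and on day 1 the ET arrays lay below for 2. The share of all tested genes that separated in this way was not counted for any of these days. The median difference of the 9 was -0.28 on day 1, 0.45 on day 3 with 9 of 9 above 0, 0.68 on day 10 with 8 of 9 above 0, 0.81 on day 20, 1.30 on day 30, 1.23 on day 60 and 1.12 on day 90. Col1a1 on day 60 read 11.01, 11.53 and 11.35 with ET and 9.85, 10.38 and 9.93 in LC. On day 90 it read 11.06, 12.52 and 11.74 with ET and 9.38, 9.65 and 9.66 in LC. Every ET array lay above every LC array on both days. RT1-CE10 was above 9 in 3 of 3 ET and 0 of 3 LC arrays on day 60. On day 90 it was above 9 in 0 of 3 ET and 3 of 3 LC arrays. That split and the tube cannot be told apart on days 60 and 90, whereas both groups were alike in RT1-CE10 on days 20 and 30. Col12a1 on day 60 read 10.32, 10.24 and 10.66 with ET and 9.14, 9.22 and 9.16 in LC. Lox on day 60 read 10.54, 9.84 and 9.72 with ET and 8.82, 8.95 and 8.53 in LC. Of the peak rise over uninjured cord, 85.8% was left on day 90 for Col1a1 with ET and 39.6% in LC, and for Col5a1 62.1% with ET and 6.94% in LC. The share was larger with ET for all 6 collagens and for Lox (48.5% with ET and 40.8% in LC), but smaller with ET for Loxl1 (84.3% with ET and 87.8% in LC) and Loxl2 (42.1% with ET and 52.2% in LC). The order of these last genes rests on the LC array of day 10 that stands apart. Loxl1 read 8.39 there and 10.41 and 10.14 in its mates, and Loxl2 read 6.08 there and 9.08 and 8.31 in them. Without that array the LC shares of both genes would fall below those with ET.

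**Figure D4:**
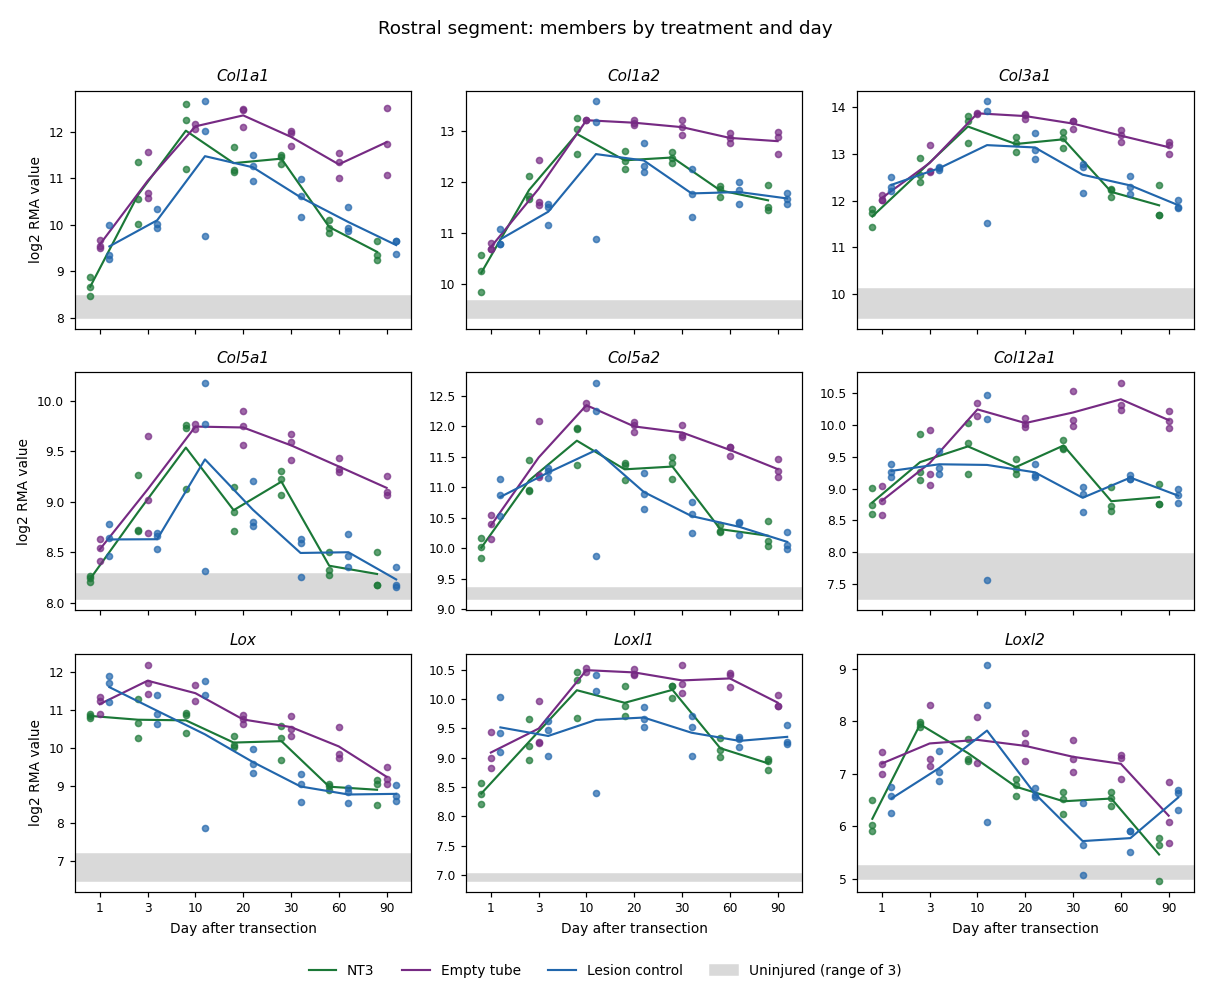
Log2 RMA values in the rostral cord by day for NT3 (green), ET (purple) and LC (blue), 1 point per array with lines through group means, 1 panel per gene. From day 20 on the purple points lie above the blue ones, apart from Loxl2 on day 90.

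For the NT3 tube the rostral differences from LC were small on average and changed sign between days. Over the mean of 7 days 0 of the 9 passed between NT3 and LC, with differences of -0.04 to 0.20, where 2.77% of tested genes were called in either direction and 2295 had an unadjusted p under 0.05. This mean joined days that ran in opposite directions. On day 1 the NT3 arrays lay below the LC arrays for 8 genes, with a median difference of -0.67, and on day 30 above them for 8, with a median of 0.76. The share of all tested genes that separated so was not counted. RT1-CE10 was above 9 in 0 of 3 NT3 and 3 of 3 LC arrays on day 1, and in 3 of 3 of each on day 30. Lox on day 1 read 10.90, 10.83 and 10.80 with NT3 and 11.21, 11.70 and 11.90 in LC. Col12a1 on day 30 read 9.65, 9.77 and 9.62 with NT3 and 9.03, 8.91 and 8.63 in LC. The F-test for a change between days passed for Loxl1 (5.40, adjusted p = 0.00379) and Loxl2 (4.02, adjusted p = 0.0161), 2 of 9 where 28.2% of tested genes were called, and for all 9 without the first or the second LC array of day 10, 4 without the last. Against the empty tube, NT3 was lower for all 9, where 12.8% of tested genes were called lower, from -0.53 for Col5a1 to -0.93 for Col1a1. Over the days alike in RT1-CE10 the call was lost for Loxl2 (-0.45, adjusted p = 0.0605). This comparison and that of ET with LC share the ET arrays. Col1a1 on day 90 read 9.35, 9.65 and 9.24 with NT3, all below the ET arrays given above.

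The rostral ET difference came with other measurements. Of the genes for folding and trimming procollagen 10 of 20 were higher with ET than in LC, Plod2 (0.72 ± 0.10), Pcolce (0.67 ± 0.10) and Fkbp10 (0.29 ± 0.07) among them, of other collagens 12 of 23, with Col8a1 at 0.80 and Col6a3 at 0.75, and of the breakdown genes 4 of 8, led by Fap at 1.03 ± 0.12. Fibroblast markers were higher in 6 of 7 cases, Lum by 0.80 and Dcn by 0.62, with Thy1 lower by 0.28. Skeletal muscle markers were higher in 5 of 7 cases, with a mean level of 5.82 to 10.5 with ET and 5.81 to 8.08 in LC, and markers of tendon, bone and cartilage in 5 of 6. Leptomeningeal markers were higher in 3 of 6 cases, and neuron and macrophage markers lower in 3 of 4 each. The part of these cell types in the rostral collagen difference was not tested.

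Caudal to the lesion neither tube gave a called difference from LC. Between NT3 and LC 0 of the 9 passed over the mean of 7 days, with differences of -0.06 to -0.31, where 9.76% of tested genes were called in either direction and 3080 had an unadjusted p under 0.05. Between ET and LC also 0 passed, with differences of 0.13 to 0.37, against 3.50% of tested genes called and 2836 with an unadjusted p under 0.05. Here the second ET array of day 10 was low, Col1a1 reading 11.52, 9.47 and 11.19 in that group, and without it 4 of the 9 were called higher with ET. NT3 was lower than ET for 6 of 9, against 3.73% of tested genes called lower: Col3a1 by -0.52 (limma adjusted p = 0.00581), Col1a1 by -0.49, Col5a2 by -0.44, Loxl2 by -0.44, Col12a1 by -0.37 and Col5a1 by -0.32 (adjusted p = 0.00224). Lox (-0.39, adjusted p = 0.0627), Loxl1 (-0.39) and Col1a2 (-0.36, adjusted p = 0.0737) did not pass. Over the days alike in RT1-CE10 the call was lost for Col1a1 (-0.48, adjusted p = 0.0741) and gained for Lox (-0.59, adjusted p = 0.0253).

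The caudal days also ran in both directions. On day 3 the NT3 arrays lay above the LC arrays for all 9 genes, with a median difference of 0.41, and the ET arrays for 8, with a median of 0.75, although the LC arrays are shared by both. Lox on day 3 read 11.47, 11.53 and 11.37 with NT3, 11.78, 12.06 and 12.52 with ET and 11.11, 11.21 and 11.32 in LC. On day 20 the NT3 arrays lay below the LC arrays for 8 genes, with a median of -0.95, and below the ET arrays for all 9, with a median of -1.11. For neither day was the share of all tested genes that separated so counted. Col1a1 on day 20 read 9.95, 9.87 and 10.49 with NT3, 11.44, 12.11 and 11.33 with ET and 11.43, 11.70 and 11.17 in LC. The F-test for a change of the difference between NT3 and LC over the days passed for Col1a1, Col5a1, Col12a1 and Loxl2, 4 of 9 where 7.18% of tested genes were called. That count was 1 without the first LC array of day 3 and 7 without the second LC array of day 10.

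**Figure D5:**
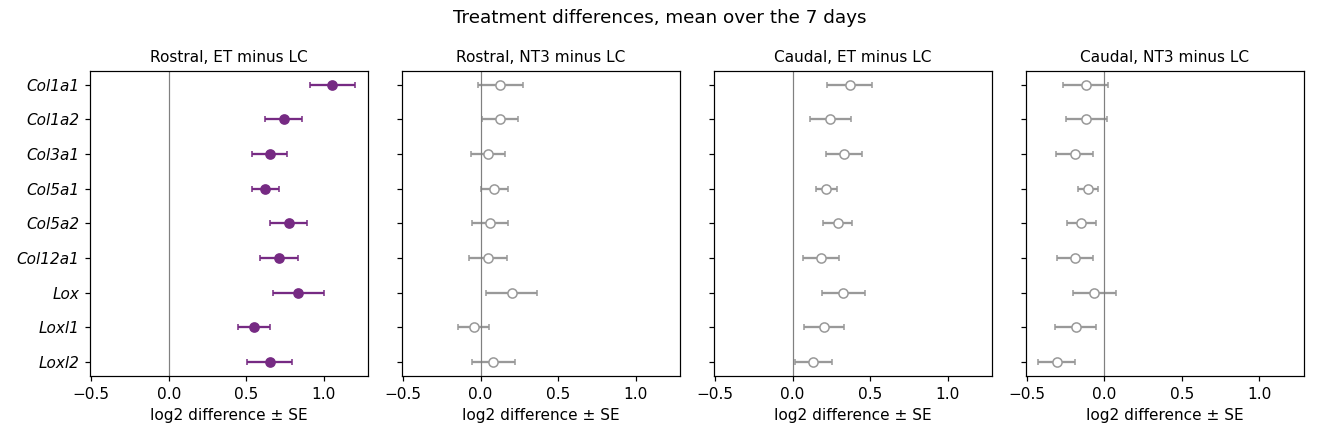
Mean differences over 7 days with standard errors for the 9 genes, in 4 panels: ET minus LC and NT3 minus LC, rostral and caudal. Filled points passed the test. All 9 points of rostral ET minus LC are filled, at 0.55 to 1.06, and none of the other 3 panels holds a filled point.

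The rostral and caudal differences were then set against each other, a comparison of ET chosen after its values were seen. The difference between ET and LC was larger rostrally than caudally for 4 of 9 genes, where 3.41% of tested genes were called higher: Col1a1 by 0.69 ± 0.21 (limma adjusted p = 0.0222), Col12a1 by 0.53 ± 0.17 (adjusted p = 0.031), Col5a2 by 0.48 ± 0.16 (adjusted p = 0.03) and Col5a1 by 0.40 ± 0.11 (adjusted p = 0.0114). The count was 7 without the second rostral LC array of day 10 and 2 without the second caudal ET array of day 10, and over the days alike in RT1-CE10 Col5a1 alone passed (0.46, adjusted p = 0.045). For the difference between NT3 and LC, 0 of 9 passed, with differences of 0.14 to 0.39, against 0.149% of tested genes called and 1122 with an unadjusted p under 0.05.

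Across the 56 group means, which share the uninjured and LC baselines and the split between segments, the 9 genes ran closely together, with Pearson correlations of 0.646 to 0.977 over 36 pairs and a median of 0.922. Col12a1 and Loxl1 were the most alike pair (0.977), and Lox was the least bound to the rest, its most alike member being Loxl2 at 0.866. Outside the 9, the genes most like their mean were Col6a3 (0.984), Fstl1 (0.983), Fap (0.981), Sfrp4 (0.978) and Pcolce. By gene, Fap was most like Col5a2 (0.984), Fstl1 most like Col12a1 (0.985) and Col6a3 most like Loxl1 (0.986). Lox was most like Enpp3 (0.974) and Loxl2 most like Enpp1 (0.955). These are descriptions over 56 groups with no test.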

How the data were processed

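Total RNA of 167 cord pieces was hybridised as biotinylated cRNA to Affymetrix rat arrays. Per the submitters' processing notes, GCOS, Affymetrix Expression Console and RMA served to make the values, and the authors deposited log2 values for 31099 probe sets, used here as they stand (2.63 to 15.0, array medians 7.10 to 7.25). Which arrays were normalised together is not given in the sources used here. The number of arrays limits the precision. Of the probe sets, 57 were controls, 20832 had 1 gene symbol, 436 had several and 9831 none. Identifiers of 20764 matched RefSeq (GRCr8, names only), and 0 symbols changed. The 9 genes had 17 probe sets.

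Where several probe sets carried a symbol, the one with the highest mean stood for the gene, which gave 14218 genes, and the 12041 genes above the 40th percentile of the array in at least 3 arrays were tested, all 9 members among them. Linear models of the group means were run in limma (version 3.58.1, with R 4.3.3; python 3.11.15, pandas 2.3.3 and numpy 2.4.6 for the rest), in 1 fit per segment with the uninjured arrays, 1 fit of all LC arrays for segments, and 1 fit of rostral and caudal arrays for differences between their treatment effects. Two-sided moderated p-values were adjusted by Benjamini-Hochberg over all genes tested, with a threshold of 0.05. Groups came from the labels.

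The named genes were the 9 members, the 3 genes of each pathway list with the largest difference at the LC lesion site over days 10 to 30, the genes most alike over 56 groups, and marker genes where they bear on a result. The members, lists and markers were chosen with earlier results of these data known. The comparison of the ET effect between rostral and caudal cord was added after the data were seen.

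The tests were tested on simulated data with known changes. Of 67 genes changed by 0.3 on the log2 scale, 62 were recovered for rostral ET against LC. For lesion site NT3 against LC it was 12 on day 90 and 0 by the F-test, with the change put into 1 group. At 0.6 the numbers were 67, 46 and 18 of 67, so that small changes at the lesion site could be missed. Alternatives were other filters, scalings, probe sets, fits, priors, array weights, covariates, blocks, days and left-out arrays. Arrays of the same number in different treatments deviated together little (median correlation 0.023 over 147 pairs, 54 of them over 0.1), and those of different segments in LC somewhat more (0.132 over 55 pairs, 32 of them over 0.1, against -0.053 for different numbers). Since not every pair passed 0.1, numbers were not taken to pair samples.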

Additional observations from a re-analysis of the deposited data

Results flagged for a closer look

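At the lesion site the difference between NT3 and LC changed between days by the moderated F-test for 7 genes, with F values of 9.078 for Col1a1, 3.26 for Col1a2, 6.811 for Col5a1, 4.253 for Col5a2, 4.219 for Lox, 9.389 for Loxl1 and 3.931 for Loxl2. In the rostral cord this difference between days passed for Loxl1 (F = 5.405) and Loxl2 (F = 4.024). In the caudal cord it passed for Col1a1 (F = 4.116), Col5a1 (F = 4.998), Col12a1 (F = 3.799) and Loxl2 (F = 4.22). The difference between ET and LC was larger rostrally than caudally, by a test of that difference, for Col1a1 (0.6872), Col5a1 (0.4039), Col5a2 (0.4805) and Col12a1 (0.5282, log2 scale). The share of all tested genes that passed the same tests stands beside these counts in the results above.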

How the results depend on the processing

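Most groups held 3 arrays, which limits what the lesion site comparisons of single days can show, and 2 of the 9 genes have a single probe set. Values below are counts of the 9 genes called, and the causes of the shifts were not tested unless stated. The rise over uninjured cord at the lesion site, the LC lesion site against its neighbours, the caudal late decline and the rostral difference of ET from LC gave 9 genes in all alternatives run. Array weights, whose estimation did not reach its tolerance in every fit, called 3 genes for lesion site NT3 against LC on day 10, 4 on day 20, 2 on day 30 and 7 on day 60, 7 for ET against LC and 5 for NT3 against ET on day 3, 8 for rostral LC day 10 against day 3, 9 for the rostral late decline, 9 for each F-test in the rostral and caudal cord, 3 for caudal NT3 against LC, 1 for caudal ET against LC, 6 for LC rostral against caudal and 8 for the rostral minus caudal effect of ET. One fit of all arrays, which shares 1 spread over segments, called 0 genes for lesion site LC day 10 against day 3, 0 for NT3 against LC on days 3, 10 and 20, 1 on day 60 and 3 on day 90, 1 for the lesion site F-test, 4 for the rostral one, and 1 each for caudal ET against LC and LC rostral against caudal. Days alike in RT1-CE10, with fewer arrays, gave 3 genes for the lesion site F-test, 0 for the rostral and caudal ones, and 1 each for LC rostral against caudal, the rostral minus caudal effect of NT3 and that of ET.

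For NT3 against LC at the lesion site, the mean of probe sets called 0 genes on day 3, 2 on day 20 and 2 on day 30, the second probe set 0 on day 3 and 2 on day 20, quantile normalization 2 on day 3, the beta-actin covariate and no filter 0 on day 10, the muscle covariate 0 on days 10 and 20, scaling to the 75th percentile 2 on day 30, and leaving out 3 arrays 2 on days 20 and 30. These 3 arrays, left out together here and below, were the last lesion site LC array of day 20, the first lesion site NT3 array of day 3 and the second uninjured array. The rostral LC array of day 10 was not among them, and the caudal fit held only the uninjured one. For ET against LC on day 3 the mean of probe sets, the second probe set and the trended prior called 2 genes, quantile normalization 1 and leaving out 3 arrays 3, and the last also called 2 for NT3 against ET. The second probe set called 1 gene for rostral LC day 3 against day 1 and 1 for the rostral F-test, where the beta-actin covariate called 4, against 2 caudally. Caudal ET against LC gave 1 gene with 75th percentile scaling, the beta-actin covariate, a filter at the 60th percentile, the second probe set or without 3 arrays, and LC rostral against caudal gave 1 with the animal as a block or the mean of probe sets. Col12a1 between rostral LC day 10 and day 3 turned to 0.661 with array weights and 0.7759 with the second probe set.

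Leaving out 1 array at a time gave, for lesion site NT3 against LC, 0 to 1 genes on days 3 and 10, 1 to 2 on day 30 and 2 to 4 on day 60; 0 to 3 for ET against LC and 0 to 2 for NT3 against ET on day 3; 1 to 8 for rostral LC day 10 against day 3, with Col12a1 from -0.5612 to 0.9; 4 to 9 for the rostral late decline; 2 to 9 for the rostral and 1 to 7 for the caudal F-test; 1 to 5 for caudal LC day 3 against day 1 and 0 to 3 for day 10 against day 3; 0 to 1 for caudal NT3 and 0 to 4 for caudal ET against LC; 0 to 8 for LC rostral against caudal; and 2 to 7 for the rostral minus caudal effect of ET. The replicate block called 2 genes for ET against LC on day 3, where the main fit called 0, and with it no other count of the 9 genes moved by over 1.5 times. Over all genes tested, the count for lesion site NT3 against LC on day 10 was 629 and 4733 with array weights, and that for rostral ET against LC was 2741 and 493 over the days alike in RT1-CE10.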
